A study of Mus musculus with 10 samples.

Results

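The genes described here are 39 ligands, receptors, Smads and regulators of the TGF-beta, activin and BMP pathways. They were chosen by name from a fixed list, all 39 were measured, and they are part of 19938 genes with a probe set of their own. The arrays held RNA of regulatory T cells (Tregs), the CD4+ T cells that carry the transcription factor Foxp3 and restrain immune responses. The cells were sorted from spleens of female C57BL/6 mice of 9 to 14 weeks whose Foxp3 gene was marked with a red fluorescent reporter, and every array came from such reporter-positive CD4+ cells. The 4 sort gates were FR3 Klrg1+ (CD62Llo CD69+ Klrg1+, 1 array), FR3 Klrg1- (CD62Llo CD69+ Klrg1-, 4 arrays), FR2 (CD62Llo CD69- Klrg1-, 2 arrays) and FR1 (CD62Lhi CD69- Klrg1-, 2 arrays). CD69 is an early activation marker that holds cells in tissue, and Klrg1 a lectin-like receptor of highly differentiated lymphocytes. The labels name no treatment. The labels call arrays of a gate biological replicates, and the sources used here do not say whether they came from different mice or from pools, so p-values measure only the spread between these arrays.

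TGF-beta, activins and BMPs are secreted dimers. Each binds a type II receptor kinase, which switches on a type I receptor kinase. The type I receptors for TGF-beta and activin phosphorylate Smad2 and Smad3, those for BMPs phosphorylate Smad1, Smad5 and Smad9, and all of these enter the nucleus with Smad4. Smad6 and Smad7, the ubiquitin ligases Smurf1 and Smurf2, the corepressors Ski, Skil, Tgif1 and Tgif2, and the decoy receptor Bambi restrain the signal. In T cells TGF-beta can induce Foxp3 and the integrin chain CD103, and Tregs themselves release active TGF-beta from its latent form at their surface.

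The 250 bases before the start site of 4 receptor genes are shown. Of these genes Bmpr1a, Bmpr2 and Acvr2a were higher and Acvr1b lower in at least 1 comparison. They are examples and not the most secure calls, and Tgfbr3, which passed in more comparisons, is not shown. The windows were read 5′ to 3′ along the gene from RefSeq (build GRCm38.p6), whose table held 30 of the 39 genes. Capitals mark GGCGCC, a site that Smad1 and Smad5 are known to bind, and CAGAC or its complement GTCTG, the box that Smad3 and Smad4 are known to bind.
Bmpr1a (chr14:34502547-34502796, - strand): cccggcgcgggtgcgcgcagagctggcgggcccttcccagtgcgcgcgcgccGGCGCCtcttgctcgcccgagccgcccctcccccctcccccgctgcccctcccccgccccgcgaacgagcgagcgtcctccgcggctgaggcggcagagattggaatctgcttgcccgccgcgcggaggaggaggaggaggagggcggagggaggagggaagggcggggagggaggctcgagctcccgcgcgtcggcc
Bmpr2 (chr1:59764029-59764278, + strand): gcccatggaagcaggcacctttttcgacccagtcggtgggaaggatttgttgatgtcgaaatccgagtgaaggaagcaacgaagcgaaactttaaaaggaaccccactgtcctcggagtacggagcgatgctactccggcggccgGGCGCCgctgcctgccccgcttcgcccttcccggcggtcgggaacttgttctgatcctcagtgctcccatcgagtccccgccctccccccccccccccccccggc
Acvr2a (chr2:48813859-48814108, + strand): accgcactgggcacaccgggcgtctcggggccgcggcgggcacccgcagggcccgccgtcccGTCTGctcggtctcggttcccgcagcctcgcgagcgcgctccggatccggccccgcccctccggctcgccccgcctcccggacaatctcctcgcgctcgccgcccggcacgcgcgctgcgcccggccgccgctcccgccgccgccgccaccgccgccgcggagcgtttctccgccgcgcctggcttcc
Acvr1b (chr15:101173822-101174071, + strand): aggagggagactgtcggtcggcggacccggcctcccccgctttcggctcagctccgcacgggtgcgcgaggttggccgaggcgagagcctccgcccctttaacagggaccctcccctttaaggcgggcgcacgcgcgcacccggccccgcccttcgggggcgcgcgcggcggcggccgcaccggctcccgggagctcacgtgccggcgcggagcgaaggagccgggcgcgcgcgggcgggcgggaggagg
The site GGCGCC, which reads the same on both strands, stood once in the Bmpr1a window at position -198 from the start and once in that of Bmpr2 at position -105. It was found in 9.59% of the 32851 promoters of the table over the same length. The box CAGAC, searched on both strands, stood once in the Acvr2a window at position -188, and 42.2% of all promoters held it. The GC box GGGCGG was found on either strand in all 4 windows, first at position -177 in Bmpr1a, -28 in Bmpr2, -136 in Acvr2a and -160 in Acvr1b, and in 32.7% of all promoters, and these first matches did not overlap the capitals. The forkhead letters GTAAACA (3.17% of all promoters), the AP-1 letters TGANTCA (6.75%) and the NFAT letters GGAAAA (20.4%) were in none of the 4 windows. G and C made up 78.8% of the Bmpr1a window, 64% of that of Bmpr2, 82% of that of Acvr2a and 78.8% of that of Acvr1b, against a median of 52.4% over all promoters. GGCGCC and GGGCGG hold only G and C, so they turn up more easily in such windows. The shares over all promoters are therefore not a matched background for them, and no excess of sites was tested.

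The values are RMA intensities on the log2 scale, on which a difference of 1 is a doubling. The arrays fell into 2 sets, and FR3 Klrg1- stood in both. The first held FR3 Klrg1- replicates 1 and 2, FR2 and FR1, and the second held FR3 Klrg1+ and FR3 Klrg1- replicates 3 and 4. Arrays of different gates in the same set correlated at 0.972 to 0.987, whereas FR3 Klrg1- arrays of different sets correlated at 0.918 to 0.921. The model therefore held a term for the set, so that each fold change comes from arrays of the same set. Foxp3 lay between 9.63 and 10.93 on the grouped arrays, and the mean over 6 measured T cell markers between 11.51 and 11.98. The gates were set on surface protein, whereas the arrays measure RNA, which need not move with it. Klrg1 stood at 12.33 on the FR3 Klrg1+ array, against 7.27 and 7.47 on the FR3 Klrg1- arrays of its set. It also differed between gates of the first set, all sorted as Klrg1-. There it stood at 7.21 and 6.54 in FR3 Klrg1-, 6.58 and 6.44 in FR2, and 5.43 and 5.78 in FR1. Against FR1 it was higher in FR3 Klrg1- (1.27 ± 0.19, adjusted p = 0.000395 in limma) and in FR2 (0.90 ± 0.19, adjusted p = 0.014). Cd69 RNA did not follow the gate set on CD69 protein. The CD69+ FR3 Klrg1- arrays of the first set stood at 12.02 and 12.16, against 11.86 and 12.17 in FR2 and 12.11 and 12.41 in FR1, both sorted as CD69- (FR3 Klrg1- against FR1: -0.17 ± 0.18, adjusted p = 0.723). In the second set Cd69 lay at 9.86 in FR3 Klrg1+ and at 10.24 and 9.73 in FR3 Klrg1-. In sorted bulk cells, fewer cells that express a gene and less RNA per cell cannot be told apart.

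In FR2 against FR1, 3 of the 39 genes rose and 1 fell (adjusted p under 0.05 over all genes, limma), which is 10.3% of them beside 4.26% of all genes (1.96% higher and 2.3% lower). The BMP receptors Bmpr1a and Bmpr2 and the activin receptor Acvr2a rose, and the co-receptor Tgfbr3 fell. In FR3 Klrg1- against FR1, 3 rose and 6 fell, or 23.1% beside 8.19% of all genes (4.39% higher and 3.79% lower). Bmpr2, Tgfbr1 and Pmepa1 rose, while Tgfbr3, Acvr1b, Acvrl1, Smad7, Smurf1 and Bambi fell. In FR3 Klrg1- against FR2 only Skil passed and rose (2.56% beside 4.75%, with 2.81% higher and 1.94% lower). In FR3 Klrg1+ against FR3 Klrg1- only Tgfbr3 passed and fell (2.56% beside 4.96%, with 2.14% higher and 2.82% lower). The arrays did not overlap for 27 of the 39 genes in FR2 against FR1 (48.6% of all genes), 20 in FR3 Klrg1- against FR1 (49% of all genes) and 23 in FR3 Klrg1- against FR2 (48.8% of all genes). The first 3 comparisons share arrays with each other, so they are not independent of one another. The shares of all genes count weakly measured genes too. Without genes under percentile 40 of the mean, 1401 genes passed in FR2 against FR1, beside 850 without this filter. The members called there stayed at 4, with Bmpr1a lost and Smad7 gained. In FR3 Klrg1- against FR1, 1965 genes and 12 members passed under that filter, beside 1632 genes and 9 members without it. The gap between the shares of members and of all genes thus depends on which genes are counted, and it was not tested. The shares given above therefore do not hold for the brighter genes alone.

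**Figure D1:**
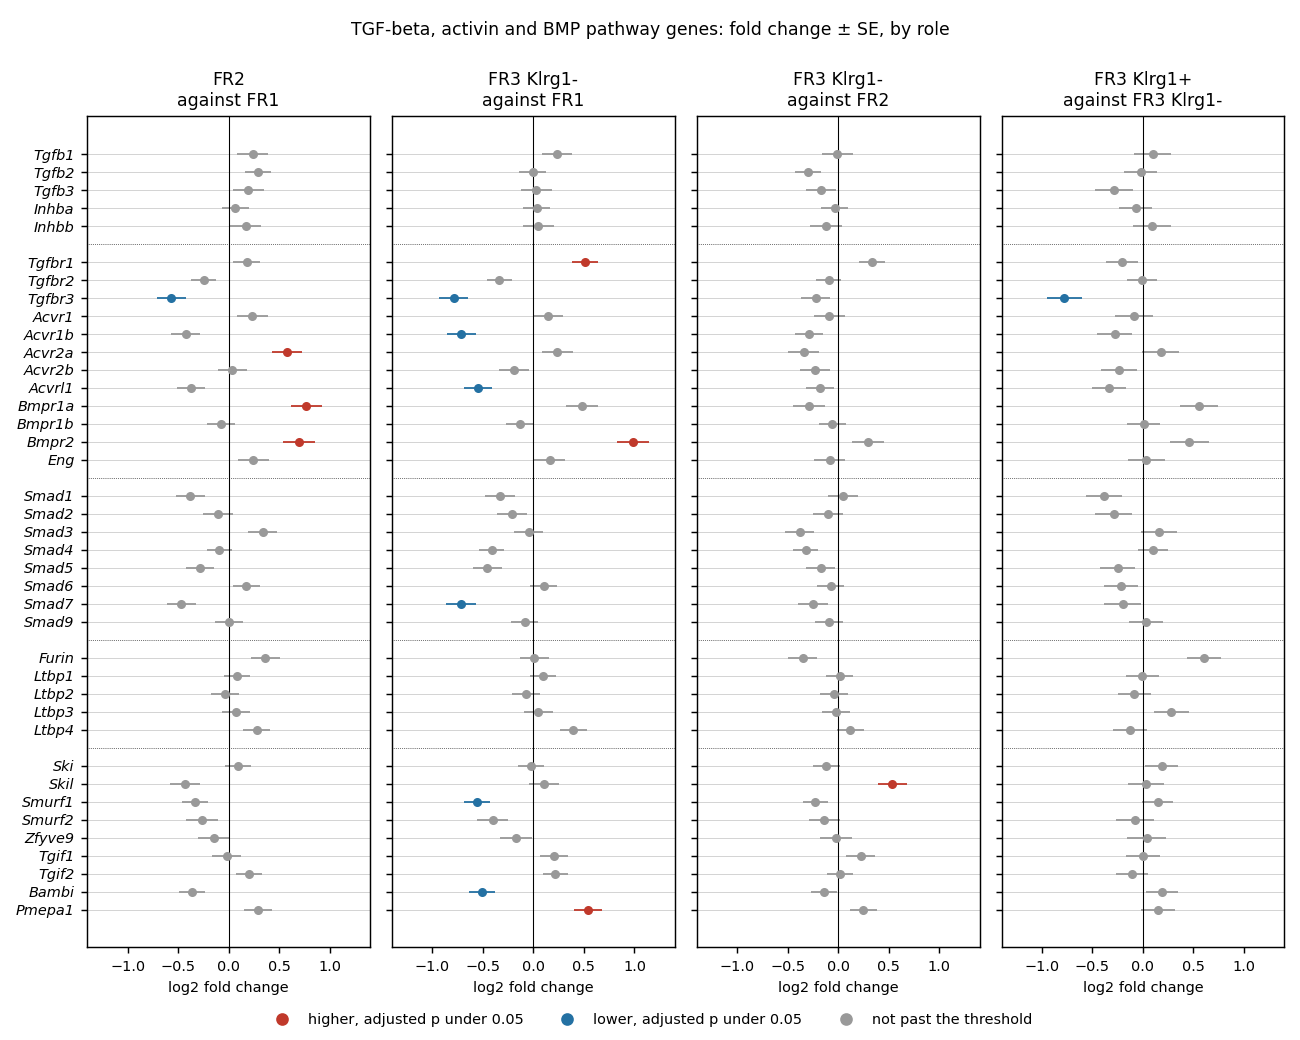
Log2 fold change (x axis, with its SE) of the 39 genes (y axis, in blocks of ligands, receptors, Smads, latent ligand handling and intracellular regulators from top to bottom) in the 4 comparisons. Red points are higher and blue points lower at an adjusted p under 0.05, and grey points did not pass. Coloured points are most numerous in FR3 Klrg1- against FR1, where 9 genes passed.

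Of the 12 receptors, 3 rose and 1 fell in FR2 against FR1 (33.3%, beside 4.26% of all genes), and 2 rose and 3 fell in FR3 Klrg1- against FR1 (41.7%, beside 8.19%). Bmpr2, the type II receptor for BMPs, stood at 8.39 and 8.71 in FR3 Klrg1-, 8.22 and 8.29 in FR2, and 7.36 and 7.77 in FR1. The 3 gates did not overlap, and their order was FR3 Klrg1-, FR2, FR1. Against FR1, Bmpr2 was 1.98-fold higher in FR3 Klrg1- (log2 0.99 ± 0.16 SE, adjusted p = 0.000645) and 1.62-fold higher in FR2 (0.69 ± 0.16, adjusted p = 0.0203). The step between FR3 Klrg1- and FR2 did not pass (0.29 ± 0.16, adjusted p = 0.409).

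Bmpr1a, a type I receptor for BMPs, stood at 5.64 and 5.90 in FR3 Klrg1-, 5.92 and 6.20 in FR2, and 5.46 and 5.11 in FR1. FR2 lay above both other gates on each of its arrays. Bmpr1a was 1.71-fold higher in FR2 than in FR1 (0.77 ± 0.15, adjusted p = 0.00958), and its difference between FR3 Klrg1- and FR1 did not pass (0.48 ± 0.15, adjusted p = 0.0758). Its mean lay under percentile 40 of the genes, where array signals are weak. Acvr2a, a type II receptor that takes activins and some BMPs, had the same order, with 6.99 and 7.29 in FR3 Klrg1-, 7.39 and 7.57 in FR2, and 6.84 and 6.97 in FR1. It was 1.49-fold higher in FR2 than in FR1 (0.58 ± 0.15, adjusted p = 0.0428). When each array was centred on its median this missed the threshold (0.53, adjusted p = 0.0627).

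Tgfbr3, the co-receptor betaglycan that presents TGF-beta and inhibin to other receptors, went the other way. It stood at 6.84 and 6.98 in FR3 Klrg1-, 7.13 and 7.14 in FR2, and 7.51 and 7.89 in FR1, with no overlap between gates. It was lower than in FR1 by 0.79 ± 0.14 in FR3 Klrg1- (log2 -0.79, adjusted p = 0.00197) and by 0.57 ± 0.14 in FR2 (-0.57, adjusted p = 0.0363). Acvr1b, the type I receptor for activin, stood at 7.25 and 7.22 in FR3 Klrg1-, 7.43 and 7.62 in FR2, and 8.01 and 7.89 in FR1. It fell in FR3 Klrg1- against FR1 (-0.71 ± 0.14, adjusted p = 0.00404), while the value of FR2 against FR1 did not pass (-0.42 ± 0.14, adjusted p = 0.117). Acvrl1, a type I receptor best known from endothelial cells, stood at 6.49 and 6.32 in FR3 Klrg1-, 6.54 and 6.63 in FR2, and 7.09 and 6.82 in FR1. It too fell in FR3 Klrg1- against FR1 (-0.55 ± 0.14, adjusted p = 0.0183). The mean of 10 stromal and endothelial markers lay at 5.99 to 6.02 in FR3 Klrg1- and 5.96 to 6.12 in FR1, and 1 of them, Pecam1, which T cells also carry, fell in FR3 Klrg1- against FR1 (-1.06 ± 0.13). Of the markers of other cells, Klrb1c (NK cells, 1.15) and Cd22 (B cells, 0.94) rose in FR3 Klrg1- against FR1. Itgb3 (platelets, -1.24), Cd79a (B cells, -0.68) and Cd8b1 (CD8 T cells, -0.55) fell. The part of all these markers in the Acvrl1 result and in the other results of this comparison was not tested.

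Of the signalling receptors for TGF-beta itself, the type I receptor rose and the type II receptor did not pass. Tgfbr1, the type I receptor, stood at 9.65 and 9.62 in FR3 Klrg1-, 9.33 and 9.28 in FR2, and 9.06 and 9.19 in FR1. It was 1.42-fold higher in FR3 Klrg1- than in FR1 (0.51 ± 0.13, adjusted p = 0.0219). Tgfbr2, the type II receptor, stood at 9.58 and 9.65 in FR3 Klrg1-, 9.71 and 9.71 in FR2, and 9.90 and 10.01 in FR1. The gates kept this order on every array, but the difference between FR3 Klrg1- and FR1 did not pass (-0.34, 95% interval -0.60 to -0.07, adjusted p = 0.132). Acvr1, Acvr2b, Bmpr1b and Eng passed in none of the 4 comparisons. Bmpr1b lay under the lower quartile of every grouped array, so its values have little meaning as levels.

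**Figure D2:**
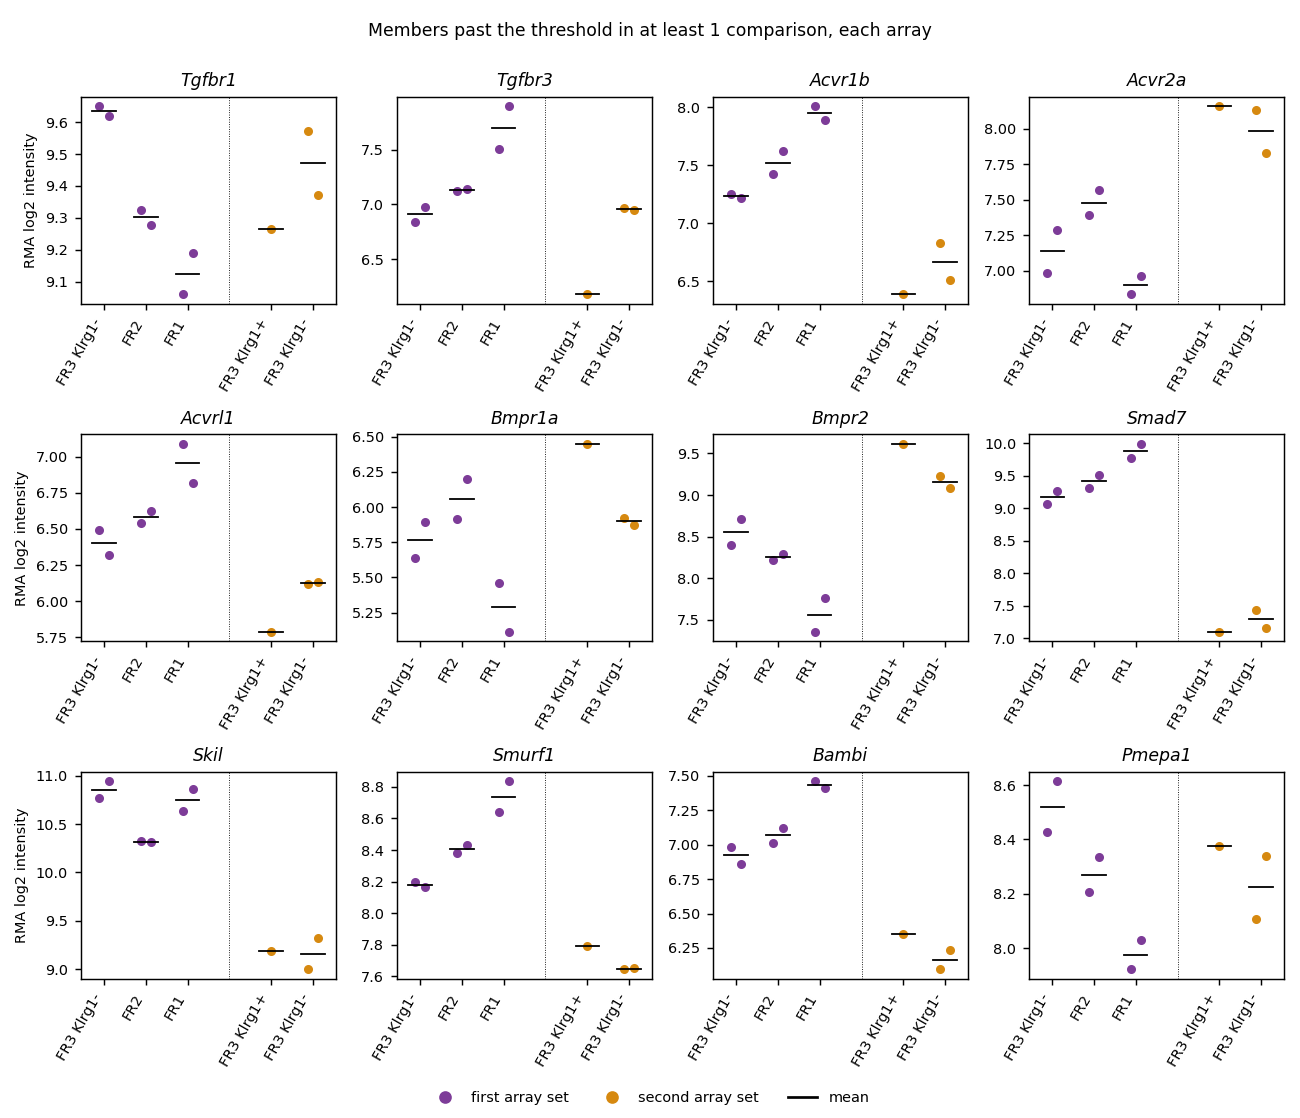
RMA log2 intensity (y axis) on each array for the 12 genes that passed in at least 1 of the 4 comparisons, with the first array set in purple, the second in orange and group means as lines. Within the first set Bmpr2 lies higher and Tgfbr3, Acvr1b, Acvrl1, Smad7, Smurf1 and Bambi lower in FR3 Klrg1- than in FR1, with no overlap, and axes do not start at 0.

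Among the 8 Smad genes the inhibitory Smad7 was the one that passed. Smad7, which blocks type I receptors and is itself a target of TGF-beta signalling, stood at 9.06 and 9.27 in FR3 Klrg1-, 9.31 and 9.51 in FR2, and 9.77 and 9.99 in FR1. The 3 gates did not overlap. Smad7 was lower in FR3 Klrg1- than in FR1 (-0.72 ± 0.15, adjusted p = 0.00537), and its value in FR2 against FR1 did not pass (-0.47 ± 0.15, adjusted p = 0.096). Smad4, the shared partner, stood at 9.97 and 9.98 in FR3 Klrg1-, 10.27 and 10.31 in FR2, and 10.33 and 10.45 in FR1. It lay lowest in FR3 Klrg1-, just short of the threshold against FR1 (-0.41 ± 0.12, adjusted p = 0.0552), and it passed in a fit of the first set alone (adjusted p = 0.0364).

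Smad3, which carries TGF-beta and activin signals, was highest in FR2, with 9.04 and 9.29 in FR3 Klrg1-, 9.59 and 9.51 in FR2, and 9.13 and 9.29 in FR1. Neither FR2 against FR1 (0.34, 95% interval 0.02 to 0.65, adjusted p = 0.245) nor FR3 Klrg1- against FR2 (-0.38, -0.69 to -0.07, adjusted p = 0.185) passed. Smad2, its close relative, stood at 8.73 and 8.84 in FR3 Klrg1-, 8.79 and 8.98 in FR2, and 8.90 and 9.09 in FR1, and did not pass (FR3 Klrg1- against FR1: -0.21, -0.53 to 0.11). The Smads of the BMP arm gave no call in the fit over all grouped arrays. Smad1 (-0.33 ± 0.15, adjusted p = 0.23) and Smad5 (-0.46 ± 0.14, adjusted p = 0.0658) had negative values in FR3 Klrg1- against FR1. In that comparison the type II receptor Bmpr2 had risen, while of the type I receptors Bmpr1a did not pass and Acvrl1 fell. Smad5, like Smad4, passed in a fit of the first set alone, and both also passed with a prior variance that follows intensity and without dim genes. Smad6 and Smad9 passed nowhere.

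No ligand passed in any comparison. Tgfb1, the main TGF-beta of lymphocytes, stood at 10.04 and 10.49 in FR3 Klrg1-, 10.26 and 10.28 in FR2, and 10.07 and 9.99 in FR1. FR3 Klrg1- overlapped both other gates, and its difference from FR1 lay between -0.09 and 0.55 at 95% confidence (adjusted p = 0.496). Tgfb2, Tgfb3 and the activin subunits Inhba and Inhbb lay between 5.01 and 5.93 on the arrays of the first set, and their largest fold change against FR1 was that of Tgfb2 in FR2 (0.29 ± 0.13, adjusted p = 0.268). The 5 genes for latent ligand handling gave no call in any of the 4 comparisons either. The protease Furin, which cuts TGF-beta precursors and many others, stood at 8.15 and 8.28 in FR3 Klrg1-, 8.70 and 8.44 in FR2, and 8.14 and 8.28 in FR1. Its value in FR2 against FR1 was 0.36 ± 0.14 (adjusted p = 0.186). Of the 4 latent TGF-beta binding proteins, Ltbp4 came nearest to the threshold (FR3 Klrg1- against FR1: 0.40 ± 0.14, adjusted p = 0.0995).

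Of the 9 intracellular and membrane regulators, 1 rose and 2 fell in FR3 Klrg1- against FR1 (33.3%, beside 8.19% of all genes). The ubiquitin ligase Smurf1, which marks BMP Smads and receptors for destruction, stood at 8.20 and 8.16 in FR3 Klrg1-, 8.38 and 8.43 in FR2, and 8.64 and 8.83 in FR1. It fell in FR3 Klrg1- against FR1 (-0.56 ± 0.13, adjusted p = 0.0111). Bambi, a receptor-like protein with no kinase that dampens the signal, stood at 6.99 and 6.86 in FR3 Klrg1-, 7.01 and 7.12 in FR2, and 7.46 and 7.41 in FR1, and fell likewise (-0.51 ± 0.13, adjusted p = 0.0205). Pmepa1, a TGF-beta target that holds back Smad2 and Smad3, rose instead. It stood at 8.43 and 8.61 in FR3 Klrg1-, 8.21 and 8.33 in FR2, and 7.92 and 8.03 in FR1 (0.54 ± 0.14, adjusted p = 0.0212).

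Skil, a corepressor of Smads that TGF-beta both degrades and induces, followed neither order. It stood at 10.76 and 10.94 in FR3 Klrg1-, 10.32 and 10.31 in FR2, and 10.64 and 10.86 in FR1, so that FR2 lay below both other gates on each array. It was higher in FR3 Klrg1- than in FR2 (0.54 ± 0.15, adjusted p = 0.0485), which missed the threshold after quantile normalization (0.48, adjusted p = 0.095). The value of FR2 against FR1 did not pass (-0.43 ± 0.15, adjusted p = 0.119). Ski, Smurf2, Zfyve9, Tgif1 and Tgif2 gave no call, and Zfyve9 lay under the lower quartile of every grouped array. A dimmer probe set of Smurf2 gave no call between gates either. Within FR3 Klrg1- it was lower in the first array set than in the second (-1.94, adjusted p = 8.3e-07 in limma), while the probe set used had -0.12.

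Over the 3 gates of the first set, 9 of the 39 genes were lowest in FR3 Klrg1-, intermediate in FR2 and highest in FR1 with no overlap between any of their arrays. These were Tgfbr2, Tgfbr3, Acvr1b, Acvrl1, Smad4, Smad5, Smad7, Smurf1 and Bambi. That is 23.1% of the genes, while 4.03% of all genes had this pattern. The opposite order without overlap held for 3, Tgfbr1, Bmpr2 and Pmepa1 (7.69% beside 4.3%). FR2 stood above both other gates without overlap for 7 genes, Tgfb2, Tgfb3, Acvr2a, Bmpr1a, Smad3, Smad6 and Furin (17.9% beside 10.2%), and below both for Skil alone (2.56% beside 10.8%). Over the 39 genes the median absolute log2 fold change was 0.24 in FR2 against FR1, beside 0.14 for all genes, and 0.21 in FR3 Klrg1- against FR1, beside 0.14. Their signed medians were 0.07 and -0.01, beside 0.02 and 0.02 for all genes.

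These counts rest on pairs of arrays. The 4 calls of FR2 against FR1 became 2 without FR1 replicate 1, 1 without FR1 replicate 2, 1 without FR2 replicate 1 and 0 without FR2 replicate 2, where 11 members had an unadjusted p under 0.05 in limma. Bmpr1a was called in 2 of these 4 fits, without FR1 replicate 1 and without FR2 replicate 1, and Acvr2a in 0 of them. Bmpr2 was called only without FR1 replicate 2, and Tgfbr3 only without FR1 replicate 1. Tgfbr3 in FR2 against FR1 was also lost without either FR3 Klrg1- array of the first set. The 9 calls of FR3 Klrg1- against FR1 became 3 without FR3 Klrg1- replicate 1, 4 without its replicate 2, and 4 without either FR1 array. Bmpr2 and Tgfbr3 were called in each of these 4 fits of FR3 Klrg1- against FR1. The call of Skil in FR3 Klrg1- against FR2 was lost without any 1 of the 6 arrays of the first set (adjusted p from 0.0602 to 0.357).

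Klrg1+ cells were compared with Klrg1- cells within FR3 of the second set, with 1 array against 2. Tgfbr3 stood at 6.18 in FR3 Klrg1+, against 6.97 and 6.95 in FR3 Klrg1-. It was 1.72-fold lower (log2 -0.78 ± 0.18, adjusted p = 0.0201), with the single array assumed to vary like the others. On this array the mean of 11 macrophage and monocyte markers was 5.35, against 5.70 and 5.91 in FR3 Klrg1-, and of these markers Fcgr1 rose and Vcam1 and Marco fell. Of the markers of other cells, Flt3 (dendritic cells, 0.91) and Itgb3 (platelets, 0.93) rose, and Klrb1c (NK cells, -0.66) and Pecam1 (endothelial cells, -0.60) fell. The part of all these markers in the Tgfbr3 result was not tested. Furin had 7.44 in FR3 Klrg1+, against 6.94 and 6.72 in FR3 Klrg1-, and just missed the threshold (0.60 ± 0.17, adjusted p = 0.0596). Bmpr1a had 6.45, against 5.92 and 5.87 (0.55 ± 0.19, adjusted p = 0.114), and Bmpr2 had 9.61, against 9.23 and 9.08 (0.46 ± 0.19, adjusted p = 0.197). The other central genes did not pass. Smad7 stood at 7.10, against 7.44 and 7.16, and Tgfb1 at 8.37, against 8.35 and 8.20. Of the 39 genes, 27 had the Klrg1+ value outside the range of the 2 Klrg1- values, or 69.2%, beside 72.5% of all genes.

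The 2 array sets differed strongly in many of the same genes within FR3 Klrg1-, where the gate is the same. Relative to the second set, 13 of the 39 genes stood higher in the first and 4 stood lower (43.6% beside 38.3% of all genes, of which 19.3% higher and 18.9% lower). Tgfb1 stood at 10.04 and 10.49 in the first set and 8.35 and 8.20 in the second, a difference of 1.99 ± 0.15. Smad7 stood at 9.06 and 9.27 in the first set and 7.44 and 7.16 in the second (1.86 ± 0.15). Tgif1, a corepressor of Smad2 and Smad3, stood at 11.30 and 11.58 in the first set and 9.52 and 9.41 in the second (1.98 ± 0.14). These differences exceeded every difference between gates among the 39 genes. Smad2 (-0.73 ± 0.15), Acvr2a (-0.84 ± 0.15), Bmpr2 (-0.60 ± 0.16) and Inhba (-0.41 ± 0.13) were lower in the first set. The sources used here do not name what separates the sets. With no term for the set in the fit, 0 members passed in FR2 against FR1 in limma (3 at an unadjusted p under 0.05) and 2 in FR3 Klrg1- against FR1.

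**Figure D3:**
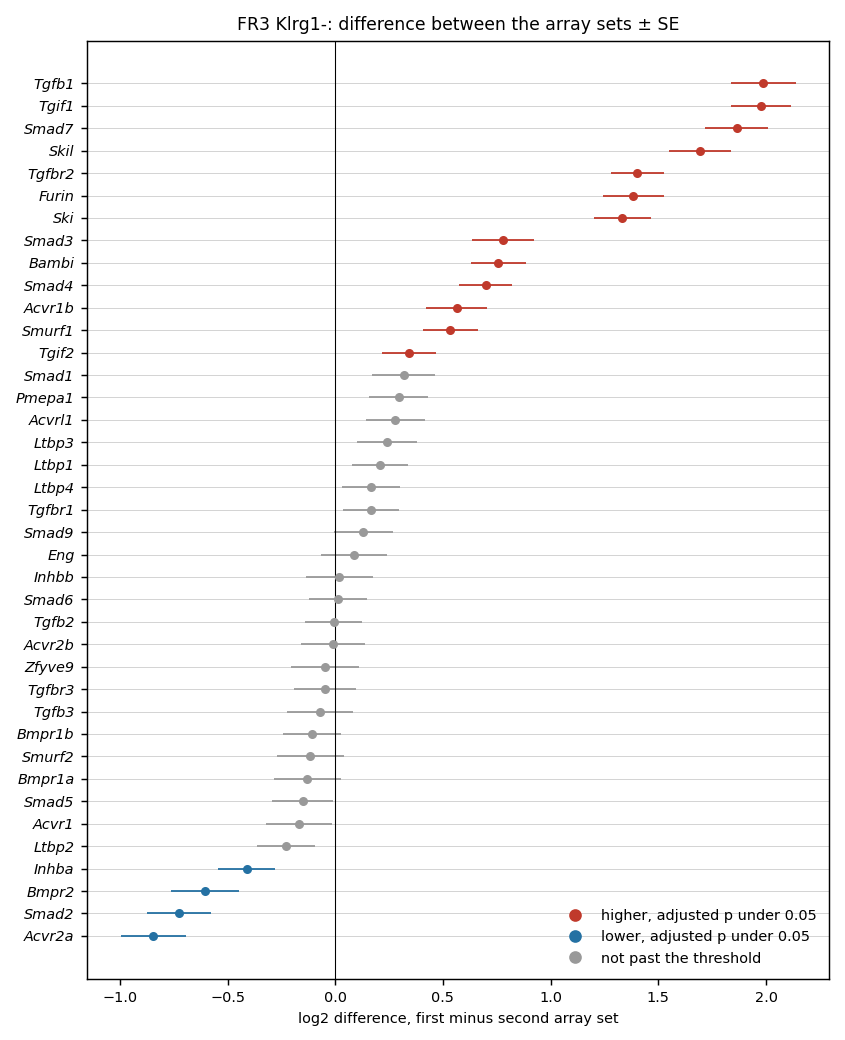
Difference between the array sets within FR3 Klrg1- (x axis, log2 of replicates 1 and 2 minus replicates 3 and 4, with its SE) for each of the 39 genes (y axis, sorted). Red points are higher and blue points lower in the first set at an adjusted p under 0.05, and Tgfb1 and Tgif1 lie near 2.

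With earlier results of these data known, a further 117 genes of the pathway were listed by function, of which 109 were measured. Of these 11 rose and 4 fell in FR2 against FR1 (13.8%, beside 4.26% of all genes), and 17 rose and 4 fell in FR3 Klrg1- against FR1 (19.3%, beside 8.19%). In FR3 Klrg1- against FR2 8 rose and 6 fell (12.8%, beside 4.75%), and in FR3 Klrg1+ against FR3 Klrg1- 1 rose and 4 fell (4.59%, beside 4.96%), a share no higher than that of all genes. Of the 9 measured genes for the release of TGF-beta from its latent form, 2 rose and 1 fell both in FR2 and in FR3 Klrg1- against FR1 (33.3% each), and 2 rose in FR3 Klrg1- against FR2 (22.2%). Itgb8, the chain that with Itgav forms the integrin by which Tregs activate latent TGF-beta, stood at 10.30 and 10.48 in FR3 Klrg1-, 8.73 and 8.70 in FR2, and 7.47 and 7.51 in FR1. Its difference between FR3 Klrg1- and FR1 was 2.90 ± 0.13 (adjusted p = 8.03e-09), and that between FR3 Klrg1- and FR2 1.68 ± 0.13. Itgav stood at 10.66 and 10.80 in FR3 Klrg1-, 10.02 and 10.06 in FR2, and 9.14 and 9.23 in FR1, and rose by 1.55 ± 0.15 in FR3 Klrg1- and by 0.86 ± 0.15 in FR2 against FR1. Nrros, a docking protein for latent TGF-beta, fell in FR3 Klrg1- (-0.90 ± 0.13) and in FR2 (-0.48 ± 0.13) against FR1.

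Lrrc32, known as GARP, which holds latent TGF-beta on the Treg surface, did not pass in the first set, with 10.61 and 10.51 in FR3 Klrg1-, 10.49 and 10.35 in FR2, and 10.38 and 10.54 in FR1. In the second set it stood at 6.82 in FR3 Klrg1+, against 7.73 and 7.88 in FR3 Klrg1- (-0.98 ± 0.16, adjusted p = 0.00326). Of 23 other ligands, 1 rose in FR2 and in FR3 Klrg1- against FR1 and 1 fell in FR3 Klrg1+ against FR3 Klrg1-. Each is 4.35% of them, beside 4.26%, 8.19% and 4.96% of all genes, no more than near those shares. Bmp7 rose in FR3 Klrg1- (1.21 ± 0.16) and in FR2 (1.06 ± 0.16) against FR1, and Bmp15 was lower in FR3 Klrg1+ (4.63) than in FR3 Klrg1- (5.31 and 5.23, log2 -0.63 ± 0.16). Bmp15 lay under the lower quartile of the FR3 Klrg1+ array, so its values too have little meaning as levels. Of 17 secreted antagonists and co-receptors, 1 rose in FR2 against FR1 (5.88%, beside 4.26% of all genes), 2 rose and 1 fell in FR3 Klrg1- against FR1 (17.6%, beside 8.19%), and 1 rose and 1 fell in FR3 Klrg1- against FR2 (11.8%, beside 4.75%). Twsg1, a secreted modulator of BMPs, rose in FR3 Klrg1- against FR1 (1.57 ± 0.15) and against FR2 (1.27 ± 0.15). Nrp1, a co-receptor that can bind TGF-beta, rose against FR1 in FR3 Klrg1- (1.13 ± 0.13) and in FR2 (1.00 ± 0.13). Rgmb, a BMP co-receptor, fell in FR3 Klrg1- against FR2 (-0.50 ± 0.14). The type I receptor Acvr1c fell in FR3 Klrg1- against FR1 (-0.68 ± 0.16), from 5.29 and 5.78 in FR1 to 4.97 and 4.73. The lower quartiles of these FR3 Klrg1- arrays were 4.96 and 4.95, so Acvr1c lay near them and its level there has little meaning.

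**Figure D4:**
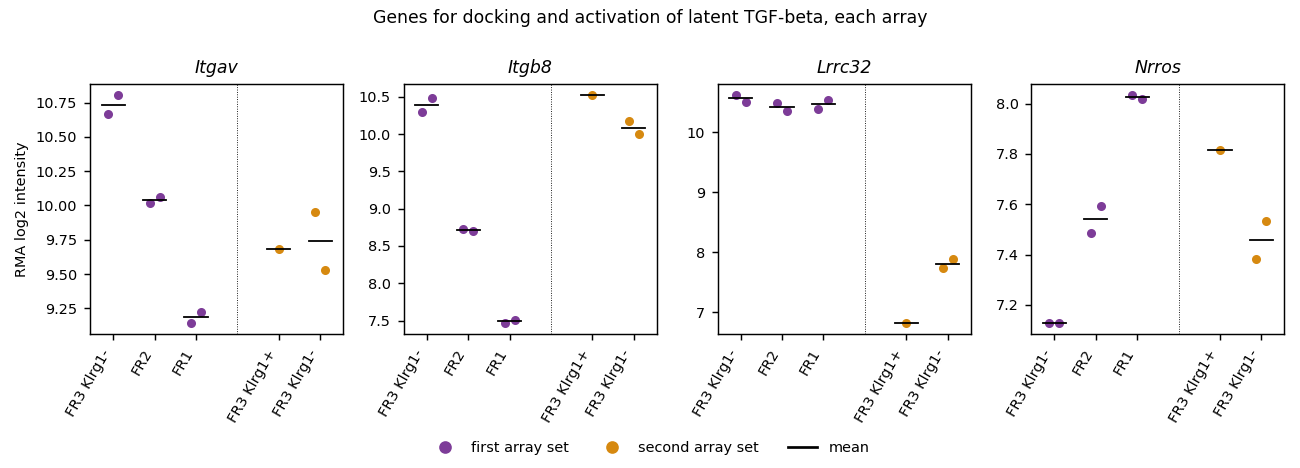
RMA log2 intensity (y axis) on each array for 4 genes that dock or activate latent TGF-beta, with the first array set in purple, the second in orange and group means as lines. Itgav and Itgb8 are highest in FR3 Klrg1- and lowest in FR1 of the first set, Nrros runs the other way, and axes do not start at 0.

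Of 34 partners of Smads in the cytoplasm and nucleus, 1 rose and 1 fell in FR2 against FR1 and again in FR3 Klrg1- against FR1, and 0 rose and 2 fell in FR3 Klrg1- against FR2. That is 5.88% of them each time, beside 4.26%, 8.19% and 4.75% of all genes, so these counts lie near those of all genes. The ubiquitin ligase Nedd4l, which limits Smad2 and Smad3, fell in FR3 Klrg1- (-1.15 ± 0.15) and FR2 (-0.78 ± 0.15) against FR1. Its relative Wwp1 rose in FR2 against FR1 (0.61 ± 0.14) and fell in FR3 Klrg1- against FR2 (-0.96 ± 0.14), as did the kinase Hipk2 (-0.75 ± 0.16). Ldlrad4, an inhibitor related to Pmepa1, rose in FR3 Klrg1- against FR1 (0.50 ± 0.13).

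Of 26 measured genes known to answer TGF-beta or BMPs, 6 rose and 2 fell in FR2 against FR1, 11 rose and 1 fell in FR3 Klrg1- against FR1, 5 rose and 3 fell in FR3 Klrg1- against FR2, and 1 rose and 2 fell in FR3 Klrg1+ against FR3 Klrg1-. These are 30.8%, 46.2%, 30.8% and 11.5% of them, beside 4.26%, 8.19%, 4.75% and 4.96% of all genes. Their median log2 fold changes were 0.12, 0.13, 0.11 and 0.13 in the same order, beside 0.02, 0.02, -0.00348 and 0.000855 for all genes. Itgae, the CD103 chain that TGF-beta induces in T cells, was highest in FR2 (2.35 ± 0.19 against FR1), and FR3 Klrg1- lay below FR2 (-1.15 ± 0.19). Runx3 (-0.81 ± 0.17) and Rara (-0.58 ± 0.14) fell in FR3 Klrg1- against FR2 as well. The repressor Bhlhe40 rose in FR3 Klrg1- against FR1 (2.25 ± 0.17) and FR2 (1.34 ± 0.17), as did Nt5e, the ecto-enzyme CD73 that makes adenosine (1.72 ± 0.14 and 0.84 ± 0.14), and Rgs16 (1.44 ± 0.14 in both). In FR2 against FR1, Atf3 (1.03 ± 0.17) and Bhlhe40 (0.91 ± 0.17) rose. Sox4, which TGF-beta is known to raise in T cells, fell in FR3 Klrg1- (-1.26 ± 0.13) and FR2 (-1.30 ± 0.13) against FR1, and Id3, a target of BMP signalling in many cells, fell in FR2 against FR1 (-0.64 ± 0.17). In FR3 Klrg1+ against FR3 Klrg1-, Id2 rose (0.84 ± 0.23), whereas Id3 (-1.45 ± 0.20) and the chemokine Xcl1 (-1.94 ± 0.19) fell. Many of these genes are known to answer other signals as well. The list was chosen with earlier results of these data known, so its shares were not an independent test of the pathway.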

How the data were processed

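Gene expression was measured on Affymetrix Mouse Gene ST 1.0 arrays, from 20 to 50 ng of RNA amplified with a NuGEN kit, per the labels' protocols. The values the authors deposited are log2 intensities made by RMA, per the submitters' processing notes, with the version not given in the sources. Of 35556 probe sets, 21789 had 1 gene symbol in the platform annotation, 1621 had several and 12146 had none. The brightest probe set stood for each of 19938 genes. Groups were read from the labels, and 1 of 10 arrays, whose title and marker text disagree, was left out. The array sets were read from correlations between arrays. A linear model with group and array set was fitted over 9 arrays with limma 3.58.1 in R 4.3.3. Its p-values were adjusted over all genes by the Benjamini-Hochberg method at a threshold of 0.05. Intervals are 95% intervals of that fit. The number of arrays limits the precision.

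On simulated data over 19938 genes, a change of 1 on the log2 scale was found in 82% of 100 changed genes in FR2 against FR1 and in FR3 Klrg1- against FR1, 81% in FR3 Klrg1- against FR2 and 60% in FR3 Klrg1+ against FR3 Klrg1-. Changes under 1 were not simulated, and every member changed by less than 1 between gates (largest 0.99, Bmpr2 in FR3 Klrg1- against FR1). These rates therefore do not tell how often changes of the members' size are found. Members past the threshold and 7 central genes (Tgfb1, Tgfbr1, Tgfbr2, Smad2, Smad3, Smad4 and Smad7) are named with their values. Of the other pathway genes, up to 3 higher and 3 lower per list and comparison, largest change first among those past the threshold, are named. Lrrc32 in the first set, and the members near the threshold, were added after their values were seen. The members and lists were chosen with earlier results of these data known. Alternatives were other normalizations, filters, variance models, array subsets and the replicate block.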

Additional observations from a re-analysis of the deposited data

Results flagged for a closer look

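Bmpr1a on FR3 Klrg1- replicate 1 stood apart from the other arrays of its gate, at 5.64 against 5.87 to 5.92 on replicates 2, 3 and 4. The gap to its nearest neighbour, divided by the whole range of the 4 arrays, was 0.831, just above Dixon's critical value for 4 samples. It was 1 of 39 genes tested in this way, and chance passes this value in about 5% of groups when all 4 arrays come from 1 distribution. These 4 arrays came from 2 array sets, so that rate need not hold here. Without this array, the log2 fold change of Bmpr1a in FR3 Klrg1- against FR1 was 0.61 (adjusted p = 0.104), against 0.48 with it.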

How the results depend on the processing

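With no array set term, the genes called were 52 in FR2 against FR1 (850 with it), 439 in FR3 Klrg1- against FR1 (1632), 55 in FR3 Klrg1- against FR2 (948) and 22 in FR3 Klrg1+ against FR3 Klrg1- (989). The members called were 0, 2, 0 and 0 in the same order, and 3, 15, 7 and 5 had an unadjusted p under 0.05 in limma. Using only the arrays of the set gave 1331 genes in FR2 against FR1, and leaving out genes under percentile 40 of the mean gave 1401. Members called in FR3 Klrg1- against FR2 were 0 after quantile normalization and with every probe set (7 with an unadjusted p under 0.05 in both). Members called in FR3 Klrg1+ against FR3 Klrg1- were 2 under a prior variance that follows intensity, under that filter and after quantile normalization.

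Same-numbered arrays correlated in their deviations from the group means at 0.181 (FR2 and FR1), 0.144 (FR3 Klrg1- and FR1) and 0.0229 (FR3 Klrg1- and FR2), so the numbers were not taken to pair them. With the replicate block in the first set, 1669, 2355 and 1586 genes and 7, 13 and 1 members were called in FR2 against FR1, FR3 Klrg1- against FR1 and FR3 Klrg1- against FR2. It could not be fitted for the single FR3 Klrg1+ array.

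Leaving out 1 array at a time gave 253 to 1331 genes and 0 to 4 members in FR2 against FR1, 910 to 2063 and 3 to 11 in FR3 Klrg1- against FR1, 302 to 1318 and 0 to 1 in FR3 Klrg1- against FR2, 721 to 1553 and 1 to 2 in FR3 Klrg1+ against FR3 Klrg1-, and 5698 to 7527 genes between the array sets.

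Signs turned for Skil, whose call in FR3 Klrg1- against FR2 became -0.31 with no array set term (adjusted p = 0.835), and for values that had not passed. With no array set term these were, in FR3 Klrg1- against FR1, Skil (-0.74), Smad2 (0.15) and Tgfb1 (-0.76), in FR3 Klrg1- against FR2 Acvr2a (0.081) and Smad2 (0.26), and in FR3 Klrg1+ against FR3 Klrg1- Bambi (-0.19), Skil (-0.81), Smad2 (0.0743), Smad3 (-0.23), Smad4 (-0.25), Smurf1 (-0.12) and Tgfb1 (-0.90). In FR3 Klrg1- against FR2, Tgfb1 became 0.0387 when arrays were centred. Tgfbr2 in FR3 Klrg1+ against FR3 Klrg1- became 0.0378 after quantile normalization. Leaving out 1 array at a time gave Skil -0.0072 to 0.216 and Smad3 -0.174 to 0.0789 in FR3 Klrg1- against FR1, Tgfb1 -0.231 to 0.216 in FR3 Klrg1- against FR2, and Skil -0.128 to 0.194 and Tgfbr2 -0.0194 to 0.00041 in FR3 Klrg1+ against FR3 Klrg1-. With no array set term, the FR3 Klrg1- mean is taken over arrays of both sets. Fold changes of that fit that involve FR3 Klrg1- therefore also hold a part of the difference between the sets. The cause of the other sign changes was not tested. Signal over background is not known for these arrays, so weak genes such as Bmpr1a, Bmpr1b and Zfyve9 are the least certain.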

Other observations

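The array that the labels put in no single gate stood at 12.41 for Klrg1, 9.82 for Bmpr2, 6.05 for Tgfbr3, 6.21 for Acvr1b, 7.14 for Smad7, 8.90 for Tgfb1 and 6.08 for Bambi on the log2 scale. It clustered with the second array set.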
